A study of Mus musculus with 44 samples.

Results

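Sialic acid-binding and lipid-binding receptors of the myeloid cell surface were followed in bone marrow-derived macrophages (BMDMs), the macrophages that mouse bone marrow cells form in culture. The group holds 8 of the 24940 genes listed, 3 Siglecs (Siglec1, Siglece and Cd33) and 5 CD300 receptors (Cd300a, Cd300lf, Cd300lb, Cd300ld and Cd300e), and was found by gene symbol in each of the 4 count tables. The genes were chosen by measured values of these same libraries, and which of those values were used is not recorded. Their values and calls are therefore descriptions and are given with no p-value. All 8 passed the filter on low counts in each table.

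RNA-seq libraries came from 8- to 12-week-old mice on the C57BL/6 background and formed 22 groups of 2 replicates, 44 libraries in all. WT cells carried NCoR flox/flox alleles, and NKO cells carried the same alleles with LysMCre, a Cre recombinase driven from the Lyz2 locus that deletes Ncor1 in myeloid cells. Both genotypes received vehicle (Veh), IL4, IFNβ (IFNb), poly I:C (PolyIC, a mimic of double-stranded RNA read by TLR3) or KLA (Kdo2 lipid A, an agonist of the lipopolysaccharide receptor TLR4) for 6 h, or RANKL, the osteoclast cytokine, for 12 h. Wild-type cells received vehicle (Veh), KLA or KLA with RGFP966, an HDAC3 inhibitor (RGFP966_KLA), and in another table DMSO with vehicle (DMSO_Veh), DMSO with KLA (DMSO_KLA) or KLA with the TBK1 inhibitor GSK8612 (TBK1i_KLA), each inhibitor from the time of serum starvation on. Pgc1b flox cells without Cre (Pgc1b_flox) or with LysMCre (Pgc1b_flox_Cre) received vehicle or KLA, and the column names of Pgc1b_flox_Cre_KLA state no time. The names of the RANKL libraries call their cells osteoclasts, whereas the sample labels call them BMDMs as in every other group. No source says whether the 2 replicates of a group came from separate animals or cultures, so the spread between them may be technical.

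Siglecs read sialic acid, the sugar that caps glycans on the body's own cells. Siglec1 (CD169, sialoadhesin) is a long adhesion receptor without an inhibitory tail motif, an interferon-responsive gene and a marker of tissue macrophages. Siglece carries immunoreceptor tyrosine-based inhibitory motifs (ITIMs), which recruit the phosphatase SHP-1 (Ptpn6) and dampen activation in neutrophils and macrophages. Cd33 (Siglec-3) is another myeloid Siglec, and its mouse form lacks the canonical ITIM of human CD33 and pairs with the adaptor DAP12. CD300 receptors sit in a cluster on chromosome 11 and bind lipids such as phosphatidylserine on dying cells. Cd300a and Cd300lf are ITIM-bearing inhibitory members, whereas Cd300lb, Cd300ld and Cd300e have short tails and signal through adaptors such as DAP12 (Tyrobp) or the Fc receptor γ chain (Fcer1g).

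Libraries held 8.32 to 16.8 M counts in genes (M, mega), so 3 counts were worth 0.179 to 0.360 CPM (counts scaled to 1 M per library) by library. This range uses the library sizes as counted. The CPM values of genes below use library sizes scaled further by the TMM method, with which 3 counts are worth more than this in WT_KLA. Ncor1, the targeted gene, lay between 136 and 214 CPM in the WT groups and between 51 and 62.3 CPM in the NKO groups (group means). Ppargc1b, which encodes PGC1β, was not lower with Cre under KLA (7.80 and 6.78 CPM without Cre, 10.3 and 8.73 CPM with it), whereas Lyz2 was (8045 and 8288 against 4531 and 4391 CPM). Summed macrophage markers reached 9040 to 23400.5 CPM in every library, and T cell markers stayed at or below 0.405 CPM. Neutrophil markers summed to 726 and 627 CPM in WT_RANKL and to 861 and 860.0 CPM in NKO_RANKL, against at most 7.21 CPM in any other library (5 of 5 markers were higher in WT_RANKL than in WT_Veh, Ly6g reaching only 1.65 CPM as a group mean), and osteoclast markers to 92.5 and 90.4 CPM in WT_RANKL against 65.7 and 53.8 in WT_Veh. By the date stamps in the library names, NKO_KLA stood 1401 days before WT_KLA, WT_KLA 115 days before WT_Veh and the RANKL libraries 536 days before it, whereas the other NCoR-table libraries share 1 stamp. NKO_KLA also held no Xist counts and 33 and 19.8 CPM of the Y-linked Ddx3y, while WT_KLA held 852 and 966 CPM of Xist and no Ddx3y (genes chosen after their values were seen). In NKO_KLA against WT_KLA, genotype cannot be told apart from date stamp and from the sex of the animals that these genes mark.

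On mm10, Siglec1 was counted on transcript NM_011426 (chr2:131069220-131086765, minus strand), and Siglece (NM_031181, chr7:43651070-43660161, minus strand) and Cd33 (NM_001111058, chr7:43527456-43533171, minus strand) lie near each other on chromosome 7. The CD300 genes follow each other on chromosome 11. Cd300a (NM_001359812, chr11:114890041-114901941) is on the plus strand, and Cd300lb (NM_199221, chr11:114922781-114934386), Cd300ld (NM_145437, chr11:114982446-114989886), Cd300e (NM_172050, chr11:115051917-115062039) and Cd300lf (NM_001169153, chr11:115116214-115133992) are on the minus strand. Counts cover the exons of 1 transcript per gene, untranslated regions included. Rab37 overlaps Cd300lf and Gm11699 overlaps Cd300lb on the other strand, with no exon shared by position in either pair. CD300 genes are close paralogs, and counts of reads that fit several of them are uncertain.

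Per kilobase of transcript, the members fell into an abundant and a scarce set. Over the 4 vehicle control groups (WT_Veh, Veh, Pgc1b_flox_Veh and DMSO_Veh), Cd300ld had group means of 162 to 194 CPM per kilobase, Cd300lb 145 to 150, Cd300a 93.8 to 128 and Siglec1 10.8 to 45.7. Cd33 had 0.764 to 3.39 CPM per kilobase in the same groups, Cd300lf 0.838 to 3.01, Cd300e 0.793 to 2.63 and Siglece 0.734 to 1.65. The ranges of the last 4 overlap, so no order among them can be given, and the tables were scaled apart. Across the 44 libraries, Siglece ranged from 0.142 to 100.4 CPM, Cd300e from 0.142 to 68.1 CPM and the abundant Cd300lb from 12.6 to 979.8 CPM, whereas Cd300ld ranged from 89.9 to 821 CPM.

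Promoter sequence from RefSeq (GRCm38.p6) was matched for 7 of the 8 members, all but Siglec1, and the 250 bases before the RefSeq start of 4 of them are printed as examples. In WT cells IFNβ but not KLA raised Cd300lf, both raised Cd300e, KLA but not IFNβ raised Siglece, and KLA lowered Cd300lb. All 4 windows are on the minus strand, at chr11:115133993-115134242 (Cd300lf), chr11:115062040-115062289 (Cd300e), chr7:43660162-43660411 (Siglece) and chr11:114934372-114934621 (Cd300lb). The first 3 end where the counted transcript starts, whereas 15 bases of the Cd300lb window lie inside its counted transcript. Capitals mark matches, on either strand, to the interferon response core GAAANNGAA, the STAT pattern TTCNNNGAA, the NFκB pattern GGGANTTTC, the AP-1 pattern TGANTCA or the PU.1 core GAGGAA.
Cd300lf: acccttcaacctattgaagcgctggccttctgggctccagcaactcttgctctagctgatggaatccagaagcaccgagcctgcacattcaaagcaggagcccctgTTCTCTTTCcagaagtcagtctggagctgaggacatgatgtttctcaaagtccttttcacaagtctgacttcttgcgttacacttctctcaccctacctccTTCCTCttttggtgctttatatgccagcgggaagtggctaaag
Cd300e: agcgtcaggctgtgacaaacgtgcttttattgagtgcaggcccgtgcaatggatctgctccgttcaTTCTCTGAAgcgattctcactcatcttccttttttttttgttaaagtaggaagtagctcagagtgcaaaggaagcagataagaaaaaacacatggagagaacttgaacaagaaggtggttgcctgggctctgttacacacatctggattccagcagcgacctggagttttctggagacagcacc
Siglece: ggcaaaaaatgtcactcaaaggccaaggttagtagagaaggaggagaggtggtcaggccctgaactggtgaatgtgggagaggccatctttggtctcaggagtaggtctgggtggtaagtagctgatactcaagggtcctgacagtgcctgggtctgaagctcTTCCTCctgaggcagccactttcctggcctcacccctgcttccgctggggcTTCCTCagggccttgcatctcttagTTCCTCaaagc
Cd300lb: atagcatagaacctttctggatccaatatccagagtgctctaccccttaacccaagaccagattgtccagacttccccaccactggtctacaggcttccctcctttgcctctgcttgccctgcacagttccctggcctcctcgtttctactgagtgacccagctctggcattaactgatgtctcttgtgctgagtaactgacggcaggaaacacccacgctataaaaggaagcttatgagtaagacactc

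Motifs were searched over 300 bases, those before the RefSeq start and the first ones after it. The interferon response core was found in 1 of the 7 promoters, that of Cd300lf, and in 8.56% of the 32851 promoters of the same length. The STAT pattern was found in 1 of 7, that of Cd300e, and in 8.30% of all promoters. Neither the NFκB pattern (1.11% of all promoters) nor the AP-1 pattern (7.81%) matched a member. PU.1, the lineage factor of macrophages, binds a GAGGAA core, and this core was in 5 of the 7 (28.3% of all promoters), with 3 copies before Siglece. Each match is a match of letters and no measured site, and the window of Cd300lb holds none of the 5 patterns.

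Ligands were compared with vehicle in WT cells with edgeR's quasi-likelihood test, in which a gene was called when its adjusted p was below 0.05 and its fold change above 1.5. The 5 ligand comparisons share the WT_Veh libraries. Values after ± are SE of a log2 fold change. Values per library are given for replicates 1 and 2 in that order. In bulk RNA, fewer cells of a type and less RNA per cell cannot be told apart. No 2 ligands moved the 8 receptors alike. IFNβ raised 3 and lowered none, RANKL moved all 8, and poly I:C raised 4 and lowered 3.

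**Figure D1:**
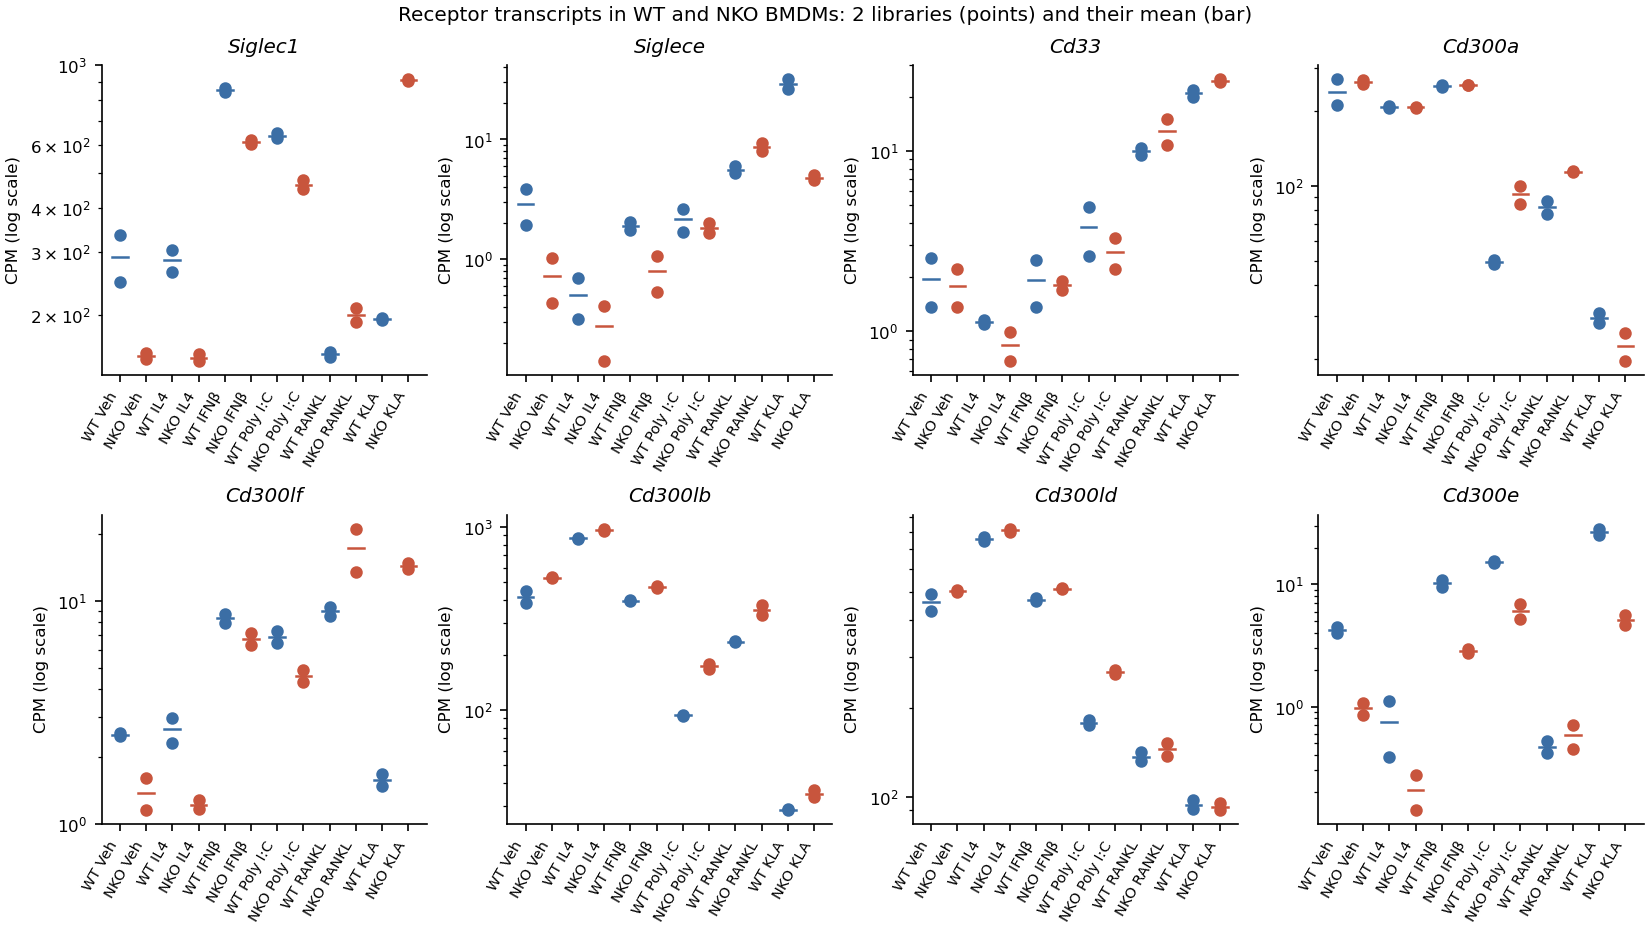
Level of each receptor (CPM, log scale) in the 24 libraries of the NCoR table, with 1 point per library, by treatment, and WT and NKO cells side by side. Siglec1 in NKO_KLA stands at 904 and 914 CPM against 193 and 196 in WT_KLA, whereas Siglece and Cd300e are lower in NKO_KLA than in WT_KLA.

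Siglec1, the sialic acid adhesion receptor, was at 248 and 334 CPM in WT_Veh. IFNβ brought it to 841 and 863 CPM (log2 fold change 1.55 ± 0.097) and poly I:C to 626 and 645 CPM (1.13 ± 0.098). Both groups stood above both vehicle libraries. RANKL cells were lower, at 153 and 157 CPM (-0.91 ± 0.10), and IL4 cells overlapped vehicle at 264 and 305 CPM. WT_KLA held 193 and 196 CPM, below both vehicle libraries, without passing the call (-0.58 ± 0.11). Siglec1 gained a call with KLA with a filter on a mean of 5 CPM (-0.63), with no filter on low counts (-0.59), without WT_KLA replicate 2 (-0.59) and without WT_Veh replicate 1 (-0.78).

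Siglece, an ITIM Siglec, was scarce in vehicle at 1.93 and 3.83 CPM, 2 libraries that are themselves far apart. KLA raised it to 31.8 and 26.3 CPM (3.33 ± 0.22) and RANKL to 5.23 and 6.0 CPM (0.96 ± 0.25), while IL4 lowered it to 0.314 and 0.692 CPM (-2.49 ± 0.43). The IFNβ libraries (1.75 and 2.06 CPM) and the poly I:C libraries (2.62 and 1.68 CPM) did not pass. Neutrophils express Siglece in the body, and the neutrophil marker sums given above were high in the RANKL libraries. Their part in the RANKL values was not tested. In the WT_KLA libraries the same markers summed to 3.27 and 3.67 CPM. Siglece lost its call with RANKL without WT_Veh replicate 1 (0.55). Siglece kept its call with IL4 but moved to -3.15 without WT_IL4 replicate 2. Siglece gained a call with IFNβ without WT_Veh replicate 1 (-1.01). Siglece gained a call with poly I:C without WT_Veh replicate 1 (-0.83).

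Cd33 moved with Siglece under KLA and RANKL. From 2.54 and 1.37 CPM in vehicle it rose to 20.1 and 21.8 CPM with KLA (3.42 ± 0.24) and to 10.5 and 9.55 CPM with RANKL (2.35 ± 0.24). Poly I:C raised it less, to 2.62 and 4.93 CPM (0.94 ± 0.32), with 1 library near vehicle. IL4 left 1.10 and 1.15 CPM (-0.79 ± 0.38, not called) and IFNβ 1.36 and 2.50 CPM, which overlapped vehicle. Cd33 lost its call with poly I:C without WT_PolyIC replicate 2 (0.42) and without WT_Veh replicate 2 (0.56). Cd33 gained a call with IL4 without WT_Veh replicate 2 (-1.17).

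The inhibitory CD300 receptors parted from each other. Cd300a fell from 269 and 211 CPM to 28 and 30.7 CPM with KLA (-3.03 ± 0.13), to 48.4 and 50.5 CPM with poly I:C (-2.28 ± 0.11) and to 77 and 86.7 CPM with RANKL (-1.55 ± 0.095). IFNβ (251 and 255 CPM) and IL4 (206 and 209 CPM) did not pass. Cd300lf began at 2.54 and 2.46 CPM and rose to 7.96 and 8.74 CPM with IFNβ (1.73 ± 0.22), to 6.43 and 7.33 CPM with poly I:C (1.45 ± 0.24) and to 8.57 and 9.41 CPM with RANKL (1.84 ± 0.21). In these 3 groups both libraries stood above both vehicle libraries. Its KLA level was 1.47 and 1.67 CPM, 9 and 10 counts, and did not pass (-0.67 ± 0.38). Poly I:C thus moved Cd300a and Cd300lf in opposite directions in the same libraries.

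Among the activating members, Cd300lb and Cd300ld kept the same directions. Cd300lb, a DAP12 partner, fell from 449 and 382 CPM to 28.3 and 28.8 CPM with KLA (-3.86 ± 0.08), to 93.8 and 92.9 CPM with poly I:C (-2.15 ± 0.064) and to 237 and 234 CPM with RANKL (-0.82 ± 0.057). Cd300ld, which pairs with the Fc receptor γ chain, went from 490.4 and 429.6 CPM to 90.7 and 97.3 CPM (-2.29 ± 0.065), 182 and 175 CPM (-1.36 ± 0.059) and 132 and 142 CPM (-1.75 ± 0.058) under the same ligands. IL4 raised both. Cd300lb reached 869 and 863 CPM (1.06 ± 0.056) and Cd300ld 769 and 746 CPM (0.72 ± 0.054), and neither passed with IFNβ. Cd300e, a short-tailed receptor of monocytes, went the other way. It rose from 3.99 and 4.51 CPM to 28.6 and 25.2 CPM with KLA (2.66 ± 0.19), to 15.6 and 15 CPM with poly I:C (1.85 ± 0.19) and to 10.9 and 9.47 CPM with IFNβ (1.26 ± 0.19). With IL4 it fell to 1.10 and 0.384 CPM (-2.51 ± 0.33) and with RANKL to 0.523 and 0.418 CPM (-3.14 ± 0.34). Cd300e kept its call with IL4 but moved to -3.43 without WT_IL4 replicate 1.

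Markers of other cell types moved with some ligands, and their part in the receptor values was not tested. Dendritic cell markers summed to 1.44 and 1.57 CPM in WT_Veh and 14.6 and 17.1 CPM in WT_PolyIC (2 higher and 0 lower of 4 tested), led by Clec9a (13.2 against 0.925 CPM). With IFNβ the same sums were 2.01 and 2.13 CPM. Endothelial and fibroblast markers summed to 82 and 73.7 CPM in WT_Veh and 6.88 and 7.83 CPM in WT_KLA (2 higher and 2 lower of 5 tested), where Col1a1 and Col1a2 were at 0. Their sums were 118 and 140.2 CPM with IL4 (1 higher and 0 lower of 5 tested) and 195 and 176 CPM with RANKL (5 higher and 0 lower of 5 tested). Eosinophil and mast cell markers summed to 11.1 and 12.2 CPM in WT_Veh, 27.3 and 27.8 CPM in WT_KLA (1 higher and 0 lower of 4 tested) and 16.7 and 18.3 CPM in WT_RANKL (3 higher and 0 lower of 4 tested). Osteoclast markers gave 3 higher and 0 lower of 4 tested with KLA and 3 higher and 0 lower of 4 tested with RANKL.

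Counts of members read against all 13407 genes tested gave no common sign. With IL4, 2 members were called higher and 2 lower, beside 6.63% of genes higher and 6.46% lower. With IFNβ, 3 were higher and 0 lower, beside 4.09% of genes higher and 2.37% lower. Poly I:C gave 4 higher and 3 lower, beside 22.2% of genes higher and 25% lower. RANKL gave 3 higher and 5 lower, beside 24.1% of genes higher and 19.8% lower, and a median log2 fold change of -0.86 over the members against 0.02 over all genes. KLA gave 3 higher and 3 lower, beside 25.4% of genes higher and 32.3% lower. The choice of members used these libraries, so nothing about ligands is read from the counts. RANKL and KLA libraries differ from WT_Veh in date stamp. The RANKL libraries also differ from it in treatment time (12 h against 6 h) and in the cell type their names give. These differences cannot be told apart from the ligand there. Among the libraries of 1 stamp fitted alone, an alternative added after the data were seen, 14 of the 14 member calls for IL4, IFNβ and poly I:C were made again. That fit compares the same libraries and only leaves the KLA and RANKL libraries out. Agreement was therefore likely in advance, and it says nothing on the date stamps of KLA and RANKL.

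KLA was given to control cells in 4 tables, in 3 of which vehicle and KLA libraries share a date stamp. Siglece rose in each, with log2 fold changes of 3.33 ± 0.22 in WT, 2.86 ± 0.14 in the RGFP966 table, 3.41 ± 0.32 in Pgc1b_flox and 4.42 ± 0.19 in DMSO. Its libraries went from 2.95 and 3.13 to 20.8 and 23.1 CPM, from 1.22 and 1.61 to 16.3 and 14.2 CPM and from 1.39 and 1.31 to 29 and 29.1 CPM in the latter 3. Cd33 and Cd300e also rose in all 4 tables. Their changes were 3.42 ± 0.24 in WT, 1.99 ± 0.16 in the RGFP966 table, 0.67 ± 0.21 in Pgc1b_flox and 1.39 ± 0.14 in DMSO for Cd33, and 2.66 ± 0.19 in WT, 2.16 ± 0.13 in the RGFP966 table, 2.92 ± 0.37 in Pgc1b_flox and 2.19 ± 0.23 in DMSO for Cd300e. The 3 abundant CD300 genes fell in all 4. Cd300a changed by -3.03 ± 0.13 in WT, -3.37 ± 0.077 in the RGFP966 table, -3.29 ± 0.10 in Pgc1b_flox and -3.98 ± 0.075 in DMSO, Cd300lb by -3.86 ± 0.08 in WT, -4.70 ± 0.08 in the RGFP966 table, -3.36 ± 0.086 in Pgc1b_flox and -4.01 ± 0.064 in DMSO, and Cd300ld by -2.29 ± 0.065 in WT, -1.79 ± 0.061 in the RGFP966 table, -1.32 ± 0.066 in Pgc1b_flox and -1.79 ± 0.048 in DMSO.

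Siglec1 and Cd300lf were the members whose KLA call differed between tables. Siglec1 rose from 74 and 63.1 to 114 and 106 CPM in the RGFP966 table (0.68 ± 0.071) and from 89.8 and 91.3 to 167 and 139.7 CPM in Pgc1b_flox cells (0.76 ± 0.088). In DMSO cells it went from 166 and 161 to 222 and 220.1 CPM (0.44 ± 0.049, below the fold threshold). The lower WT_KLA level of Siglec1 was thus not seen in the 3 tables with a common stamp, where both KLA libraries stood above both vehicle libraries. Its vehicle level itself varied between tables, from 74 and 63.1 CPM in Veh to 248 and 334 CPM in WT_Veh. Cd300lf fell in DMSO cells, from 5.49 and 5.82 to 2.54 and 1.85 CPM (-1.36 ± 0.29), and in the other 3 tables its estimates were also negative but not called. Over the members, KLA gave 4 higher and 3 lower in the RGFP966 table (27.9% of genes higher and 32.2% lower), 4 higher and 3 lower in Pgc1b_flox (22.8% of genes higher and 25.7% lower) and 3 higher and 4 lower in DMSO (29.6% of genes higher and 29.3% lower). Siglec1 lost its call in the RGFP966 table with a filter on a mean of 5 CPM (0.56) and without Veh replicate 2 (0.57). Cd300lf gained a call in Pgc1b_flox cells without Pgc1b_flox_KLA replicate 2 (-1.12). Cd33 lost its call in Pgc1b_flox cells without Pgc1b_flox_KLA replicate 2 (0.57).

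NKO cells were compared with WT cells within each treatment. In the 4 treatments of 1 date stamp, the members called lower in NKO cells were Cd300e in each treatment and Siglec1, Siglece and Cd300lf in some of them. Of the abundant CD300 genes Cd300a and Cd300lb were called, both higher, under poly I:C. Each treatment has its own pair of groups, so no library is shared among these comparisons. Osteoclast markers moved with genotype in the same 4 treatments, Acp5, Ctsk and Dcstamp of the 4 listed being called higher in each. Their sums were 144 and 149 CPM in NKO_Veh against 65.7 and 53.8 in WT_Veh, 148 and 149 against 63.7 and 66.8 with IL4, 141 and 146 against 56.1 and 60.4 with IFNβ and 156 and 169 against 61.8 and 61.3 with poly I:C. Endothelial and fibroblast sums were lower in NKO cells, at 54.7 and 53.2 against 82 and 73.7 CPM with vehicle (0 higher and 2 lower of 5 tested) and 59.3 and 51.8 against 97.5 and 112 CPM with poly I:C (0 higher and 2 lower of 5 tested). Among macrophage markers Lyz2, the locus that carries the Cre, was called lower in each of the 4 treatments, and Adgre1 in vehicle (-0.66 ± 0.054). The part of these markers in the receptor values was not tested.

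**Figure D2:**
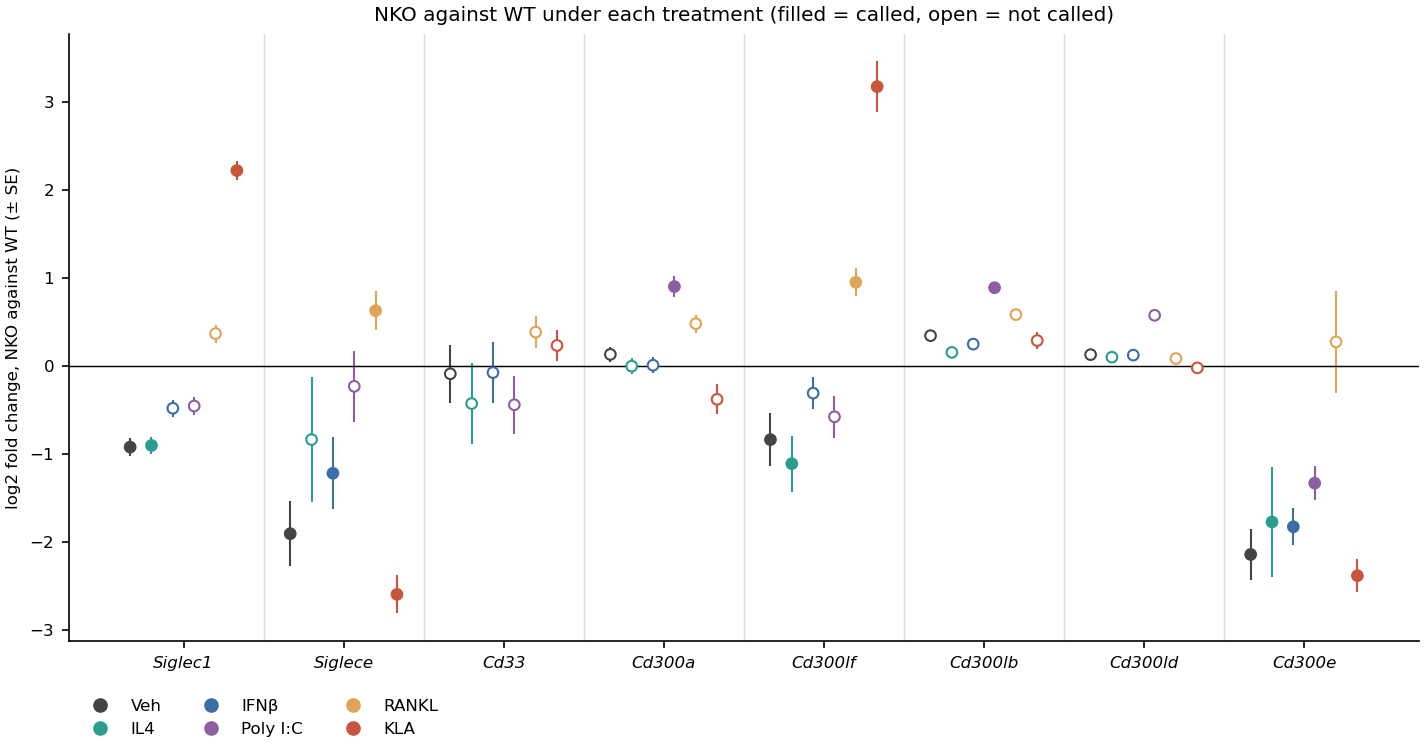
Log2 fold change of NKO over WT cells (± SE) for the 8 receptors in each of the 6 treatments, with filled points where the gene was called. Siglec1 and Cd300lf lie below 0 with vehicle and IL4 and far above it with KLA, at 2.22 and 3.18.

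Cd300e was called lower in NKO cells in 5 of the 6 treatments. NKO_Veh held 1.08 and 0.855 CPM against 3.99 and 4.51 in WT_Veh (-2.14 ± 0.29), NKO_IFNb 2.98 and 2.74 against 10.9 and 9.47 (-1.83 ± 0.21) and NKO_PolyIC 6.97 and 5.18 against 15.6 and 15 (-1.33 ± 0.20). No library overlapped in these pairs. With IL4 both genotypes were near the limit of detection, at 0.273 and 0.142 CPM (4 and 2 counts) against 1.10 and 0.384 (-1.77 ± 0.63). RANKL cells held 0.452 and 0.708 CPM in NKO and 0.523 and 0.418 CPM in WT, and were not called. Cd300e lost its call at IL4 with DESeq2 (-1.83), with no filter on low counts (-1.77), without NKO_IL4 replicate 1 (-2.30), without NKO_IL4 replicate 2 (-1.40) and without WT_IL4 replicate 1 (-0.85).

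Siglec1 was called lower in NKO cells under vehicle, 157 and 150.3 CPM against 248 and 334 (-0.92 ± 0.10), and under IL4, 149 and 155 CPM against 264 and 305 (-0.90 ± 0.10). Under IFNβ (602 and 619 CPM against 841 and 863, -0.48 ± 0.094) and poly I:C (476 and 451 CPM against 626 and 645, -0.46 ± 0.097) the groups did not overlap, but the difference stayed under the fold threshold. In NKO cells too the libraries given IFNβ or poly I:C stood above both vehicle libraries, and neither interaction term was called. With RANKL the NKO libraries were the higher ones, at 191 and 209.9 CPM against 153 and 157 (0.37 ± 0.10, not called). Siglec1 gained a call in the interaction of genotype and IFNβ without WT_Veh replicate 1 (0.64). Siglec1 gained a call in the interaction of genotype and poly I:C without WT_Veh replicate 1 (0.67).

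Siglece was lower in NKO_Veh, at 0.431 and 1.03 CPM against 1.93 and 3.83 (-1.91 ± 0.37), and in NKO_IFNb, at 1.06 and 0.533 CPM against 1.75 and 2.06 (-1.22 ± 0.41). With RANKL it was higher in NKO cells, at 9.30 and 8.0 CPM against 5.23 and 6.0 (0.63 ± 0.22). The genotypes overlapped under poly I:C and IL4. Siglece kept its call in vehicle but moved to -2.71 without NKO_Veh replicate 2. Siglece lost its call with IFNβ in the fit of the libraries of 1 date stamp (-1.23), without NKO_IFNb replicate 2 (-0.83), without WT_IFNb replicate 1 (-1.34) and without WT_IFNb replicate 2 (-1.11). Siglece kept its call with IFNβ but moved to -1.81 without NKO_IFNb replicate 1. Siglece lost its call with RANKL with DESeq2 (0.63), without NKO_RANKL replicate 1 (0.51) and without WT_RANKL replicate 1 (0.53).

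Cd300lf was lower in NKO_Veh, at 1.15 and 1.60 CPM against 2.54 and 2.46 (-0.84 ± 0.30), and in NKO_IL4, at 1.16 and 1.27 CPM against 2.99 and 2.31 (-1.11 ± 0.32). In NKO_RANKL it was higher, at 21 and 13.5 CPM against 8.57 and 9.41 (0.95 ± 0.16), with the NKO libraries far apart. Of the 5 neutrophil markers, 4 were also higher in NKO_RANKL than in WT_RANKL, and their part was not tested. Cd300lf lost its call in vehicle with DESeq2 (-0.84), with only the compared groups fitted (-0.83), without NKO_Veh replicate 1 (-0.64), without NKO_Veh replicate 2 (-1.12), without WT_Veh replicate 1 (-0.81) and without WT_Veh replicate 2 (-0.86). Cd300lf lost its call with IL4 without NKO_IL4 replicate 1 (-1.05) and without WT_IL4 replicate 1 (-0.91). Cd300lf lost its call with RANKL without NKO_RANKL replicate 1 (0.58).

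Cd300a and Cd300lb were the members called higher in NKO cells under poly I:C. Cd300a was at 100.2 and 84.8 CPM against 48.4 and 50.5 (0.90 ± 0.12) and Cd300lb at 179 and 167 CPM against 93.8 and 92.9 (0.89 ± 0.067). Both genes fall with poly I:C in WT cells, and the NKO libraries were nearer to vehicle. Cd300ld had the same direction, 263 and 269.9 CPM against 182 and 175 (0.58 ± 0.06), just under the fold threshold. In vehicle, IL4 and IFNβ none of the 3 was called. Cd33 was called in no treatment, and its NKO levels ran from 0.837 CPM with IL4 to 24.6 CPM with KLA (group means). Cd300ld gained a call with poly I:C without NKO_PolyIC replicate 1 (0.59) and without WT_PolyIC replicate 1 (0.60). Cd300lb gained a call with RANKL with DESeq2 (0.59), with the size factors of DESeq2 (0.59), without NKO_RANKL replicate 1 (0.67) and without WT_RANKL replicate 1 (0.59). Cd33 gained a call with RANKL without NKO_RANKL replicate 2 (0.60).

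Of the 8 members, 4 were called lower and 0 higher in NKO_Veh, beside 2.40% of genes higher and 3.80% lower. IL4 gave 3 lower and 0 higher, beside 1.90% of genes higher and 2.33% lower, and IFNβ 2 lower and 0 higher, beside 1.86% of genes higher and 1.94% lower. Poly I:C gave 2 higher and 1 lower, beside 3.01% of genes higher and 2.92% lower. RANKL gave 2 higher and 0 lower, beside 6.21% of genes higher and 6.99% lower. In KLA, 2 were higher and 2 lower, beside 21% of genes higher and 19% lower. The median over the members was -0.46 in vehicle, against -0.015 over all genes, and 0.43 with RANKL, against 0.0069. NCoR loss was among the contrasts known when the members were chosen, so nothing is read from these counts.

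Under KLA 4 members were called in NKO against WT cells, 2 higher and 2 lower, beside 21% of genes higher and 19% lower. Siglec1 and Cd300lf turned to the opposite side from vehicle. NKO_KLA held 904 and 914 CPM of Siglec1 against 193 and 196 in WT_KLA (2.22 ± 0.11), the highest group level of this gene in the NCoR table. Cd300lf stood at 14.7 and 13.8 CPM against 1.47 and 1.67 (3.18 ± 0.29). Siglece was lower, at 4.55 and 5.05 CPM against 31.8 and 26.3 (-2.60 ± 0.22), and so was Cd300e, at 5.58 and 4.67 CPM against 28.6 and 25.2 (-2.39 ± 0.19). Cd33, Cd300a, Cd300lb and Cd300ld were not called. Among macrophage markers, Adgre1 (-0.73 ± 0.054) and Lyz2 (-1.54 ± 0.088) were called lower and Cd68 higher (0.80 ± 0.049). Dendritic cell markers also moved with this comparison, 5 of 5 being higher in NKO_KLA. Their sums were 35.4 and 31.2 CPM in NKO_KLA and 4.26 and 4.66 CPM in WT_KLA. Clec9a and Xcr1 led them, while Flt3, Zbtb46 and Cd209a stayed under 1 CPM. Endothelial and fibroblast markers moved too (5 of 5 higher, 25.3 and 22.9 against 6.88 and 7.83 CPM). Neutrophil markers summed to 1.37 and 0.381 against 3.27 and 3.67 CPM, with Camp called lower (0.0859 against 2.31 CPM). Of the osteoclast markers, Ocstamp (3.54 ± 0.38) and Dcstamp (0.71 ± 0.13) were called higher and Ctsk lower (-0.65 ± 0.12). The part of all these markers in the result was not tested.

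**Figure D3:**
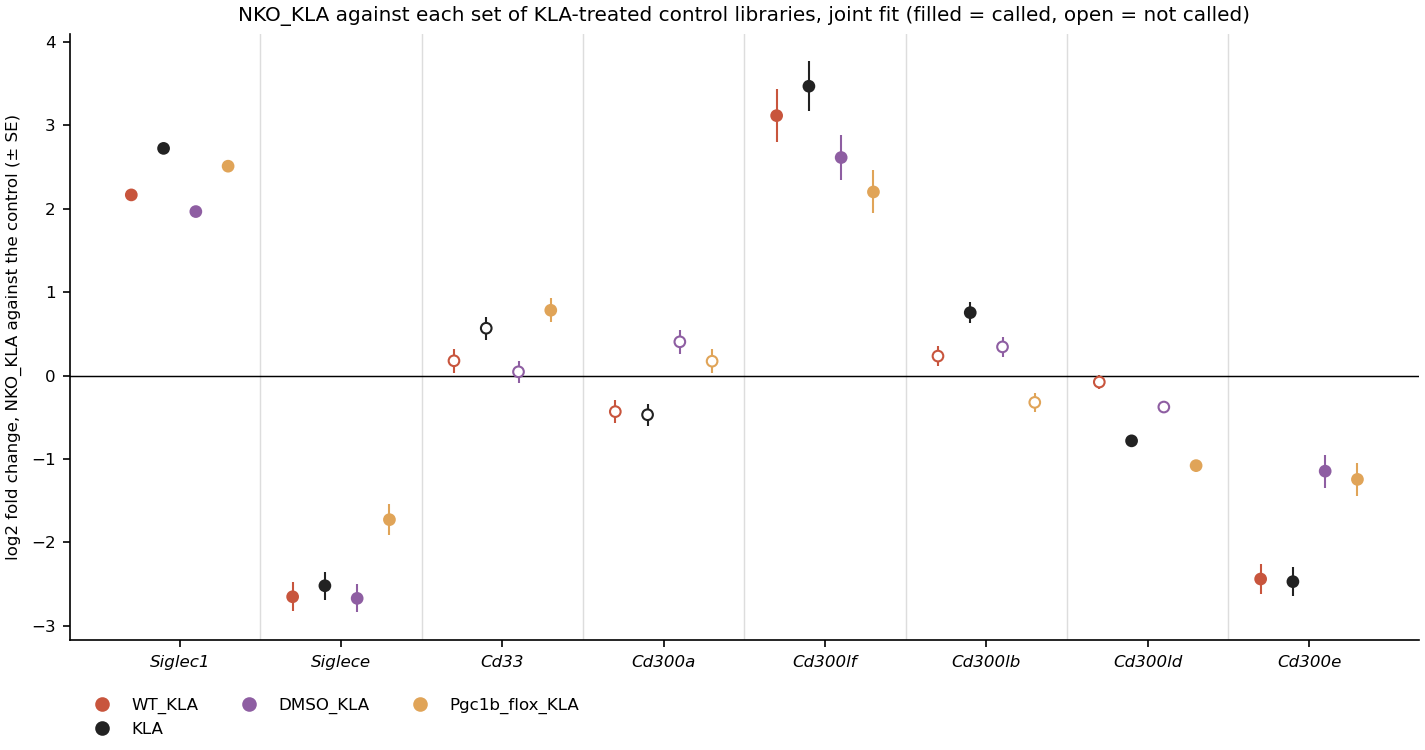
Log2 fold change (± SE) of the NKO_KLA libraries over each of 4 sets of NCoR-replete KLA libraries, for the 8 receptors, all from 1 fit of the KLA libraries of the 4 tables. Siglec1 and Cd300lf lie above 0 and Siglece and Cd300e below 0 against each set, while Cd300a and Cd300lb change side.

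Because NKO_KLA and WT_KLA also differ in date stamp and sex, the NKO_KLA libraries were set against the KLA-treated control libraries of the other tables in a joint fit of 10864 genes. Siglec1 was higher by 2.72 ± 0.065 against KLA, 2.51 ± 0.064 against Pgc1b_flox_KLA and 1.97 ± 0.062 against DMSO_KLA. Cd300lf was higher by 3.47 ± 0.30 against KLA, 2.20 ± 0.26 against Pgc1b_flox_KLA and 2.61 ± 0.27 against DMSO_KLA. Each of these 6 differences was called, and so were the 6 of the genes that were lower. Siglece gave -2.52 ± 0.17 against KLA, -1.73 ± 0.18 against Pgc1b_flox_KLA and -2.67 ± 0.17 against DMSO_KLA, and Cd300e gave -2.47 ± 0.17 against KLA, -1.24 ± 0.19 against Pgc1b_flox_KLA and -1.15 ± 0.20 against DMSO_KLA. Pgc1b_flox_KLA is the control set that, like NKO_KLA, has no Xist counts, with 93.3 and 97.4 CPM of Ddx3y. The remaining members depended on the control set. Cd300ld was called lower against KLA and Pgc1b_flox_KLA (-0.78 ± 0.072 and -1.08 ± 0.072), Cd33 higher against Pgc1b_flox_KLA (0.78 ± 0.14) and Cd300lb higher against KLA (0.75 ± 0.12). Background calls were 23% higher and 23.9% lower against KLA, 16.2% and 21.1% against Pgc1b_flox_KLA, and 19.2% and 22.5% against DMSO_KLA. The 3 other control sets also differ from NKO_KLA in table and date stamp, which cannot be told apart from genotype here.

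Interaction terms asked whether a ligand moved a gene differently in NKO and WT cells. They share the vehicle libraries of both genotypes. From these the RANKL libraries differ in treatment time as well, 12 h against 6 h, and the KLA and RANKL libraries in date stamp. For IL4 and IFNβ, 0 of the 8 members were called by edgeR, beside 0.604% of genes for each ligand. For IL4 an unadjusted p was below 0.05 for 1 of them, and DESeq2 called 0. For IFNβ an unadjusted p was below 0.05 for 1 of them, and DESeq2 called 0. Poly I:C gave 2 calls (background 3.24%), RANKL gave 4 (background 14.2%) and KLA gave 2 (background 36.9%). The poly I:C terms were Cd300a (0.77 ± 0.15) and Siglece (1.68 ± 0.56). RANKL terms were 1.29 ± 0.14 for Siglec1, 2.54 ± 0.43 for Siglece, 2.42 ± 0.69 for Cd300e and 1.79 ± 0.34 for Cd300lf, the genes whose NKO levels were below WT in vehicle and not with RANKL. KLA terms were 3.14 ± 0.15 for Siglec1 and 4.01 ± 0.43 for Cd300lf. Cd300a lost its call in the poly I:C term with only the compared groups fitted (0.76). Cd300lb gained a call in the poly I:C term without NKO_PolyIC replicate 2 (0.59) and without WT_Veh replicate 2 (0.66). Siglece lost its call in the poly I:C term with DESeq2 (1.66), in the fit of the libraries of 1 date stamp (1.68), with only the compared groups fitted (1.66), without NKO_PolyIC replicate 1 (1.53), without NKO_PolyIC replicate 2 (1.81), without NKO_Veh replicate 1 (1.25), without WT_PolyIC replicate 2 (1.39) and without WT_Veh replicate 2 (1.10). Siglece kept its call in the poly I:C term but moved to 2.48 without NKO_Veh replicate 2. Cd300e lost its call in the RANKL term without NKO_RANKL replicate 2 (2.08). Siglece kept its call in the RANKL term but moved to 3.34 without NKO_Veh replicate 2. Cd300a gained a call in the KLA term without NKO_KLA replicate 2 (-0.70) and without WT_Veh replicate 1 (-0.69). Siglece gained a call in the KLA term without WT_Veh replicate 2 (-1.27).

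**Figure D4:**
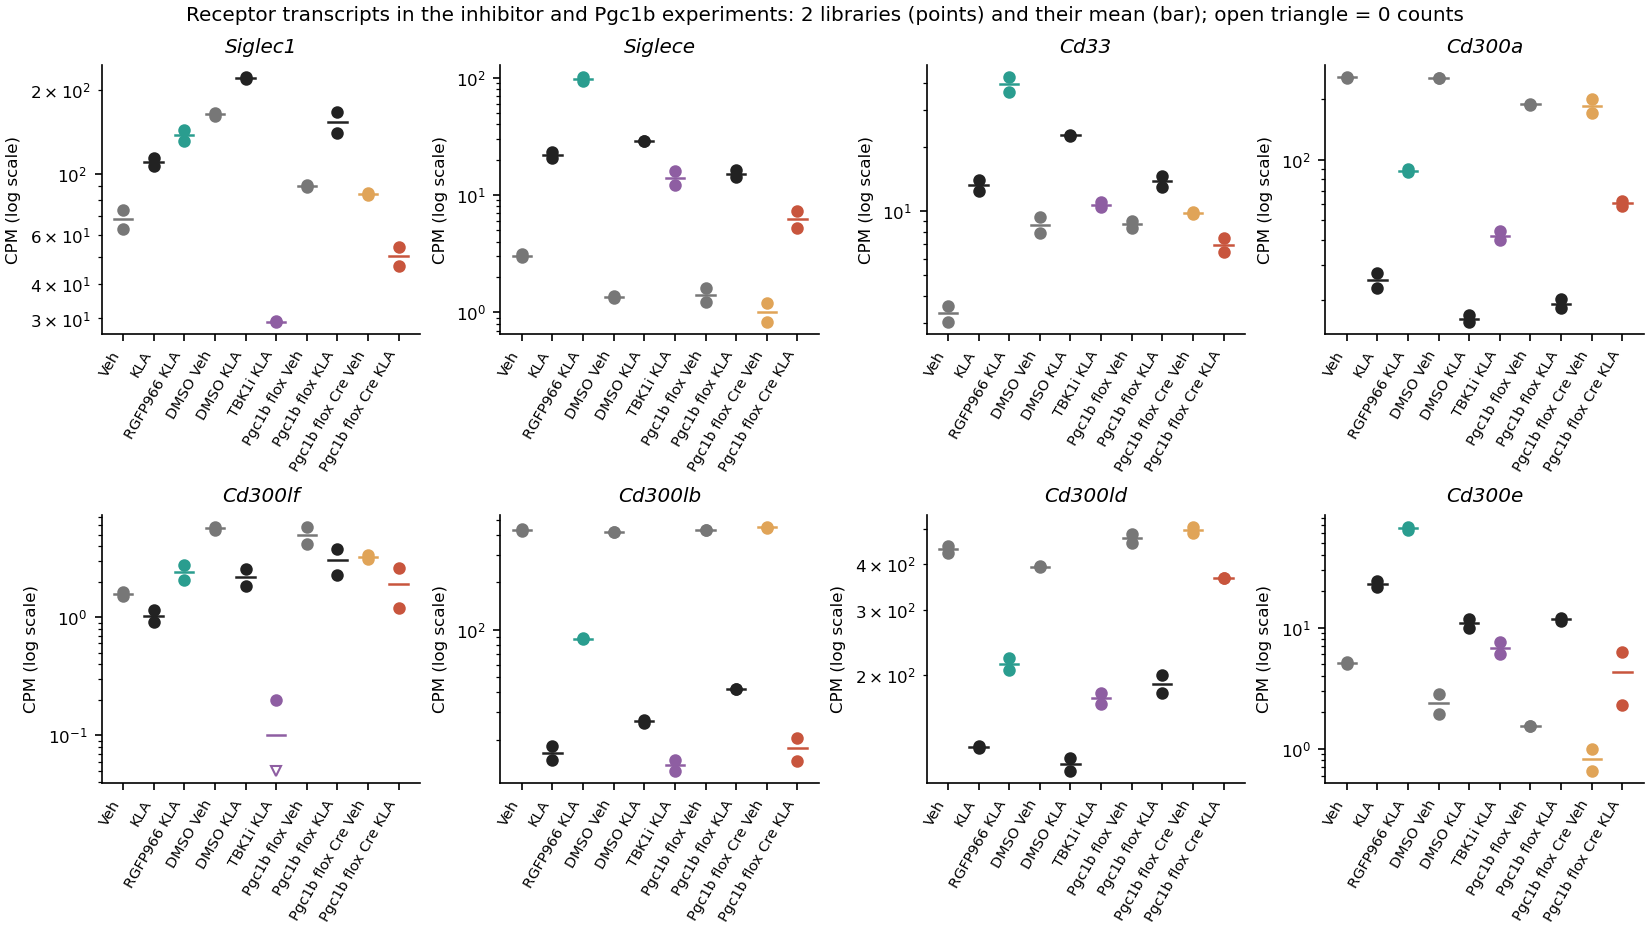
Level of each receptor (CPM, log scale) in the 20 libraries of the RGFP966, Pgc1b and TBK1i tables, with 1 point per library, and the open triangle is a library with 0 counts. RGFP966_KLA stands above KLA for each gene, and TBK1i_KLA is at 29.3 and 29.2 CPM of Siglec1 against 222 and 220 in DMSO_KLA.

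RGFP966, the HDAC3 inhibitor, was compared with KLA alone. Of the 8 members 7 were called higher with it and 0 lower, beside 15.8% of genes higher and 9.54% lower, and the median over the members was 1.55 against 0.026 over all genes. Both RGFP966_KLA libraries were above both KLA libraries for each of the 8 genes. The share of all genes that stood apart in this way is not given, so nothing is read from this count. Siglece, raised by KLA from 2.95 and 3.13 to 20.8 and 23.1 CPM, reached 100.4 and 93.2 CPM with the inhibitor (2.13 ± 0.09), its highest level in any library. Cd300e went from 21.5 and 24.1 to 68.1 and 63.8 CPM (1.53 ± 0.096) and Cd33 from 12.5 and 14 to 42.5 and 36.4 CPM (1.57 ± 0.12). These 3 KLA-raised genes were raised further. The 3 genes that KLA lowered were nearer to vehicle with RGFP966. Cd300lb went from 14.8 and 18.1 to 87.4 and 88.2 CPM (2.41 ± 0.088, from 424 and 440.2 CPM in Veh), Cd300a from 27.2 and 22.9 to 89.7 and 87 CPM (1.82 ± 0.083) and Cd300ld from 126 and 128 to 223 and 206 CPM (0.75 ± 0.062). Cd300lf rose from 1.15 and 0.906 to 2.06 and 2.77 CPM (1.24 ± 0.41), and Siglec1, at 131 and 144 CPM, was not called (0.32 ± 0.069). Replicate 2 of RGFP966_KLA carries a date stamp 14 days after replicate 1. Neither RGFP966 nor the TBK1 inhibitor was given without KLA. A changed response to KLA thus cannot be told apart from a change already present without it. Siglece and Cd300e thus lay on opposite sides of their KLA controls in NKO_KLA and in RGFP966_KLA, a difference between tables that was not tested. Cd300lf lost its call with RGFP966 with DESeq2 (1.17), without KLA replicate 2 (1.06) and without RGFP966_KLA replicate 2 (1.01).

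The TBK1 inhibitor moved all 8 members past the call against DMSO_KLA, 2 higher and 6 lower, beside 15% of genes higher and 18.3% lower. Siglec1 fell from 222 and 220.1 to 29.3 and 29.2 CPM (-2.92 ± 0.068), below the 166 and 161 CPM of DMSO_Veh. Cd300lf went from 2.54 and 1.85 CPM, 39 counts over both libraries, to 2 counts in all, 0 of them in replicate 2. The control level was 20.8 times that of TBK1i_KLA, with an exact 95% interval of 5.38 to 178 that covers counting error only. The KLA-raised Siglecs were lower with the inhibitor but stayed above or near vehicle. Siglece went from 29 and 29.1 to 16.1 and 12.1 CPM (-1.04 ± 0.14; 1.39 and 1.31 in DMSO_Veh) and Cd33 from 22.7 and 22.7 to 11 and 10.5 CPM (-1.08 ± 0.15; 7.90 and 9.39 in DMSO_Veh). Cd300e was lower too, at 6.01 and 7.55 CPM against 11.7 and 9.95 (-0.68 ± 0.21). The genes that KLA lowered split. Cd300a (16.8 and 15.6 to 39.9 and 44.1 CPM, 1.37 ± 0.10) and Cd300ld (109.5 and 119 to 167 and 178 CPM, 0.59 ± 0.053) were higher with the inhibitor. Cd300lb went lower still, from 26.8 and 25.4 to 14.9 and 12.6 CPM (-0.92 ± 0.11). The median over the members was -0.98 against 0.012 over all genes. Cd300e lost its call with the TBK1 inhibitor with DESeq2 (-0.65), without DMSO_KLA replicate 1 (-0.56) and without TBK1i_KLA replicate 1 (-0.52). Cd300ld lost its call with the TBK1 inhibitor without DMSO_KLA replicate 1 (0.53) and without TBK1i_KLA replicate 2 (0.55). For Cd300lf the fitted log2 fold change was -4.24, and -7.71 without TBK1i_KLA replicate 1 and -3.39 without TBK1i_KLA replicate 2.

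**Figure D5:**
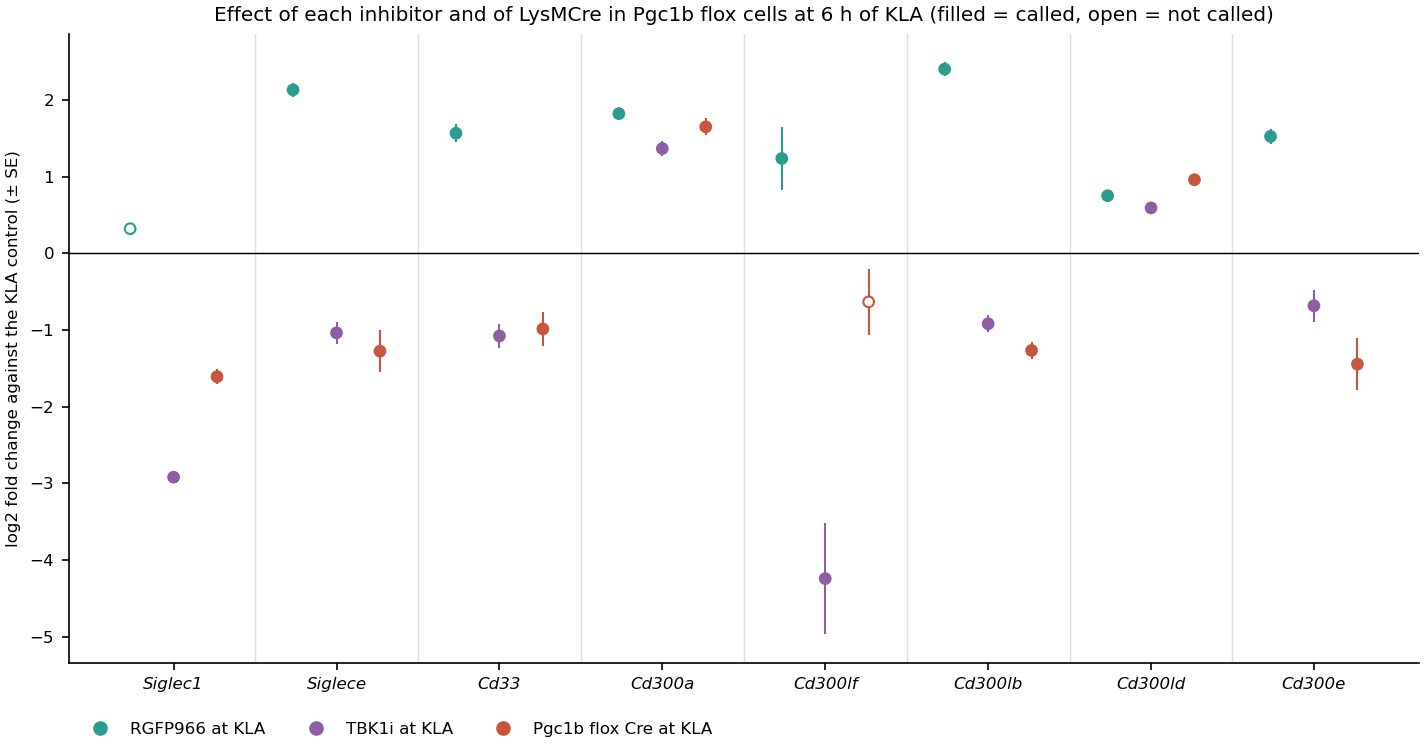
Log2 fold change (± SE) over the KLA control of the same table, for the 8 receptors, with RGFP966, with the TBK1 inhibitor and with Cre in Pgc1b flox cells, filled where called. Cd300a lies above 0 with RGFP966, the TBK1 inhibitor and Cre, at 1.82, 1.37 and 1.65.

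In Pgc1b flox cells Cre made no called difference under vehicle. There 0 of the 8 members were called by edgeR, beside 0.164% of genes higher and 0.139% lower, with Siglec1 at 85.1 and 83.5 CPM with Cre and 89.8 and 91.3 CPM without, and Cd300lb at 443 and 453 and 430.0 and 434 CPM. An unadjusted p was below 0.05 for 0 of them, and DESeq2 called 0. Under KLA, 7 members were called, 2 higher and 5 lower, beside 13.2% of genes higher and 12.9% lower, with a median of -1.13 over the members against -0.00039 over all genes. Siglec1 was at 46.3 and 54.5 CPM against 167 and 139.7 (-1.61 ± 0.095) and, with KLA, stood below both vehicle libraries in Cre cells and above them in control cells. Siglece was at 7.37 and 5.22 CPM against 16.3 and 14.2 (-1.28 ± 0.27), Cd33 at 6.43 and 7.53 against 13 and 14.7 (-0.99 ± 0.22) and Cd300e at 6.25 and 2.31 against 12.1 and 11.4 (-1.44 ± 0.34), with the Cd300e replicates of the Cre cells far apart. All 3 Siglecs were thus lower. Cd300lb was lower as well, at 14.5 and 20.6 CPM against 41.9 and 42.2 (-1.27 ± 0.11). Cd300a, at 59.2 and 62.2 CPM against 20.3 and 18.2 (1.65 ± 0.11), and Cd300ld, at 368 and 366 CPM against 178 and 199 (0.96 ± 0.067), were higher. The interaction of Cre and KLA was called for 5 members, beside 22.8% of genes, at -1.51 ± 0.13 for Siglec1, -1.32 ± 0.13 for Cd300lb, -1.17 ± 0.30 for Cd33, 0.88 ± 0.091 for Cd300ld and 1.68 ± 0.14 for Cd300a. Since Ppargc1b RNA was not lower with Cre, these are differences between libraries labeled by Cre, and loss of PGC1β cannot be read from the RNA. The counts are summed over exons, so loss of single exons was not tested. The paper examined PGC1β protein in BMDMs of both genotypes by immunoblot, a measure apart from this RNA. Cd300e kept its call with KLA but moved to -2.32 without Pgc1b_flox_Cre_KLA replicate 1.

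Markers of macrophages and of other cell types also differed in these 3 contrasts, and their part was not tested. Among macrophage markers, RGFP966 gave a call for Csf1r (0.93 ± 0.055) alone. The TBK1 inhibitor gave calls for Csf1r and Lyz2 (0.81 ± 0.034 and 0.79 ± 0.030). Cre cells under KLA gave them for Adgre1 and Lyz2 (-0.80 ± 0.055 and -0.87 ± 0.052). Clec9a was called lower with RGFP966 (1.23 against 3.28 CPM) and the TBK1 inhibitor (0.0564 against 1.01 CPM). Zbtb46 was called higher with the latter (4.36 against 0.168 CPM). With RGFP966, osteoclast markers gave 2 higher and 0 lower of 4 tested, at 165 and 163 against 149 and 142 CPM. With the TBK1 inhibitor, endothelial and fibroblast markers gave 0 higher and 3 lower of 4 tested, at 24.5 and 21.6 against 39.6 and 38 CPM. In Cre cells under KLA, osteoclast markers gave 2 higher and 0 lower of 4 tested, at 164 and 148 against 125 and 118 CPM, and dendritic cell markers gave 1 higher and 0 lower of 2 tested, at 10.6 and 7.93 against 6.66 and 5.27 CPM.

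The 12 groups of the NCoR table fell in a different order for each receptor, given here by group mean from the highest to the lowest. Neighbors in an order whose libraries overlap do not differ beyond their spread. Siglec1 ran from NKO_KLA (909 CPM) through WT_IFNb, WT_PolyIC, NKO_IFNb, NKO_PolyIC, WT_Veh, WT_IL4, NKO_RANKL, WT_KLA, WT_RANKL, NKO_Veh to NKO_IL4 (152 CPM), and libraries of neighbors overlapped in the runs WT_Veh to WT_IL4, NKO_RANKL to WT_KLA and WT_RANKL to NKO_Veh to NKO_IL4. Siglece ran from WT_KLA (29 CPM) through NKO_RANKL, WT_RANKL, NKO_KLA, WT_Veh, WT_PolyIC, WT_IFNb, NKO_PolyIC, NKO_IFNb, NKO_Veh, WT_IL4 to NKO_IL4 (0.276 CPM), and libraries of neighbors overlapped in the runs WT_Veh to WT_PolyIC to WT_IFNb to NKO_PolyIC and NKO_IFNb to NKO_Veh to WT_IL4 to NKO_IL4. Cd33 ran from NKO_KLA (24.6 CPM) through WT_KLA, NKO_RANKL, WT_RANKL, WT_PolyIC, NKO_PolyIC, WT_Veh, WT_IFNb, NKO_IFNb, NKO_Veh, WT_IL4 to NKO_IL4 (0.837 CPM), and libraries of neighbors overlapped in the run WT_PolyIC to NKO_PolyIC to WT_Veh to WT_IFNb to NKO_IFNb to NKO_Veh. For Siglece and Cd33 the 4 KLA and RANKL groups took the first places. Cd300a ran from NKO_Veh (263 CPM) through NKO_IFNb, WT_IFNb, WT_Veh, WT_IL4, NKO_IL4, NKO_RANKL, NKO_PolyIC, WT_RANKL, WT_PolyIC, WT_KLA to NKO_KLA (22.6 CPM), and libraries of neighbors overlapped in the runs NKO_IFNb to WT_IFNb to WT_Veh, WT_IL4 to NKO_IL4 and NKO_PolyIC to WT_RANKL. Cd300lf ran from NKO_RANKL (17.3 CPM) through NKO_KLA, WT_RANKL, WT_IFNb, WT_PolyIC, NKO_IFNb, NKO_PolyIC, WT_IL4, WT_Veh, WT_KLA, NKO_Veh to NKO_IL4 (1.22 CPM), and libraries of neighbors overlapped in the runs NKO_RANKL to NKO_KLA, WT_RANKL to WT_IFNb, WT_PolyIC to NKO_IFNb, WT_IL4 to WT_Veh and WT_KLA to NKO_Veh to NKO_IL4. Cd300lb ran from NKO_IL4 (963 CPM) through WT_IL4, NKO_Veh, NKO_IFNb, WT_Veh, WT_IFNb, NKO_RANKL, WT_RANKL, NKO_PolyIC, WT_PolyIC, NKO_KLA to WT_KLA (28.6 CPM), and libraries of neighbors overlapped in the run WT_Veh to WT_IFNb. KLA groups came last for Cd300a, Cd300lb and Cd300ld, and the IL4 groups first for Cd300lb and Cd300ld. Cd300ld ran from NKO_IL4 (811 CPM) through WT_IL4, NKO_IFNb, NKO_Veh, WT_IFNb, WT_Veh, NKO_PolyIC, WT_PolyIC, NKO_RANKL, WT_RANKL, WT_KLA to NKO_KLA (92.6 CPM), and libraries of neighbors overlapped in the runs WT_IFNb to WT_Veh, NKO_RANKL to WT_RANKL and WT_KLA to NKO_KLA. Cd300e ran from WT_KLA (26.9 CPM) through WT_PolyIC, WT_IFNb, NKO_PolyIC, NKO_KLA, WT_Veh, NKO_IFNb, NKO_Veh, WT_IL4, NKO_RANKL, WT_RANKL to NKO_IL4 (0.208 CPM), and libraries of neighbors overlapped in the runs NKO_PolyIC to NKO_KLA and NKO_Veh to WT_IL4 to NKO_RANKL to WT_RANKL. Highest and lowest group means differed 130-fold for Cd300e and 105-fold for Siglece, against 5.98-fold for Siglec1 and 8.77-fold for Cd300ld.

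Other genes of the same families and their signaling partners were taken from lists, whose genes were also chosen with results of these data known. Among 6 other Siglecs, Siglecf, a receptor of eosinophils and lung macrophages, was called higher in NKO cells in each of the 6 treatments. It stood at 15 ± 0.494 CPM in NKO_Veh against 2.06 ± 0.283 in WT_Veh (SD, n = 2), a log2 fold change of 2.86 ± 0.20. The changes were 3.25 ± 0.23 with IL4, 3.23 ± 0.22 with IFNβ, 2.64 ± 0.25 with poly I:C, 1.16 ± 0.24 with RANKL and 1.83 ± 0.26 with KLA. RGFP966 raised it too, to 31.6 ± 0.388 CPM from 3.32 ± 0.778 (SD, n = 2; 3.23 ± 0.17). In vehicle, Siglecf was thus higher in the NKO libraries in which Siglec1 and Siglece were lower. Eosinophil and mast cell markers summed to 7.82 and 8.10 CPM in NKO_Veh and 11.1 and 12.2 CPM in WT_Veh, with 0 of the 5 markers higher in NKO_Veh and Epx and Mcpt4 at 0 there. The sums were 8.55 and 7.43 against 6.76 and 7.84 CPM with IL4, 10.1 and 8.53 against 7.90 and 7.27 CPM with IFNβ and 6.65 and 6.22 against 5.0 and 4.33 CPM with poly I:C. In NKO_RANKL they summed to 43.5 and 47.7 CPM against 16.7 and 18.3 in WT_RANKL, with Ccr3 (1.52 ± 0.12), Cpa3 (1.81 ± 0.48) and Prg2 (1.06 ± 0.24) called higher. In NKO_KLA the sums were 28.8 and 26 CPM against 27.3 and 27.8, with Prg2 called higher (1.88 against 0 CPM). With RGFP966 they were 34.8 and 38.1 CPM against 18.3 and 20.5, with Ccr3 called higher (0.91 ± 0.11). The part of these markers in the Siglecf values was not tested. Of the 6 other CD300 genes, Cd300ld3, Cd300ld4 and Cd300ld5 were called lower in NKO_KLA (-1.34 ± 0.39, -1.94 ± 0.45 and -1.94 ± 0.45) and, with RGFP966, by -0.89 ± 0.21, -0.87 ± 0.20 and -0.87 ± 0.20. These 3 genes are near-identical copies, so their values are not independent and the split of reads among them is uncertain.

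Adaptors and kinases carry activating signals from the receptors' immunoreceptor tyrosine-based activation motifs (ITAMs), and phosphatases carry the inhibitory ones. Of 7 adaptors and kinases, NKO_Veh had 0 higher and 3 lower of 7 tested (beside 2.40% of genes higher and 3.80% lower), among them Fgr (-0.85 ± 0.21) and Lyn (-0.61 ± 0.058), Src-family kinases of myeloid cells. In NKO_KLA the calls were Fgr (-1.0 ± 0.18), Syk (-0.81 ± 0.05) and the adaptor Hcst (0.72 ± 0.20). The TBK1 inhibitor lowered the receptor γ chain Fcer1g (-0.84 ± 0.036) and Lyn (-0.59 ± 0.039) and raised Fgr (0.79 ± 0.15). Cre cells under KLA had lower Lyn (-1.53 ± 0.063). Ptpn6, the SHP-1 phosphatase, fell with the TBK1 inhibitor (-1.43 ± 0.041) and in Cre cells under KLA (-1.18 ± 0.062), as did Inpp5d, the SHIP-1 phosphatase (-1.0 ± 0.099 and -0.67 ± 0.086).

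Enzymes that make, attach or remove sialic acid, the ligand side of the Siglecs, gave 6 higher and 5 lower of 20 tested in NKO_KLA, 5 higher and 2 lower of 19 tested with RGFP966, 4 higher and 4 lower of 19 tested with the TBK1 inhibitor and 5 higher and 3 lower of 19 tested in Cre cells under KLA. Over all genes tested the shares were 21% of genes higher and 19% lower in NKO_KLA, 15.8% of genes higher and 9.54% lower with RGFP966, 15% of genes higher and 18.3% lower with the TBK1 inhibitor and 13.2% of genes higher and 12.9% lower in Cre cells. The medians were 0.11, 0.21, -0.26 and 0.22, beside 0.07, 0.026, 0.012 and -0.00039 over all genes. In NKO_KLA the largest change was that of Cmah, which hydroxylates sialic acid, at a low level (0.0906 against 0.579 CPM, -2.55 ± 1.07). St6gal1, which adds α2,6-linked sialic acid, rose with the TBK1 inhibitor (3.91 ± 0.25) and in Cre cells (4.67 ± 0.24), and the sialyltransferase gene St3gal6 fell with the inhibitor (-2.75 ± 0.52). St8sia4, a polysialyltransferase, rose in the same contrasts (1.65 ± 0.07 and 1.91 ± 0.11), and was the gene called in NKO cells under IL4, IFNβ and poly I:C (0.60 ± 0.063, 0.66 ± 0.065 and 0.69 ± 0.093). In NKO_KLA St6galnac4 rose (1.85 ± 0.078), and the α2,3-sialyltransferase St3gal4 (-1.55 ± 0.081) and the sialic acid acetyltransferase Casd1 (-1.49 ± 0.15) fell. Genes of phosphatidylserine exposure and recognition, the ligand side of Cd300a and Cd300lf, gave 3 higher and 2 lower of 12 tested in NKO_KLA, 0 higher and 5 lower of 12 tested with RGFP966 and 3 higher and 4 lower of 11 tested with the TBK1 inhibitor, beside the same shares of all genes. Tyro3 was the largest change with the TBK1 inhibitor and with RGFP966, at a low level (0.269 against 1.97 CPM and 0.260 against 1.49 CPM). Axl and Mertk, receptors for dying cells like Tyro3, fell with the inhibitor (-2.32 ± 0.05 and -1.65 ± 0.078) and in Cre cells under KLA (-1.18 ± 0.076 and -2.07 ± 0.11), together with the scramblase gene Xkr8 (-2.05 ± 0.058 and -1.71 ± 0.085). Mertk also fell with RGFP966 (-1.34 ± 0.065) and was higher in NKO_KLA (0.69 ± 0.09), where the bridging ligand gene Gas6 rose (1.45 ± 0.078).

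Other inhibitory and activating receptors of myeloid cells formed 2 further lists. In NKO_KLA the inhibitory receptors gave 1 higher and 6 lower of 12 tested (median -0.60) and activating receptors 1 higher and 6 lower of 10 tested (median -1.35), beside a median of 0.07 over all genes and 21% of genes higher and 19% lower. Among the inhibitory ones Clec4a2 (-2.47 ± 0.084) and the Fc receptor Fcgr2b (-1.97 ± 0.056) fell and Cd200r1 rose (1.77 ± 0.081). Among the activating ones Trem3 was lower at a low level (0.138 against 0.992 CPM), the C-type lectins Clec4e (-2.42 ± 0.16) and Clec4d (-1.60 ± 0.053) and Pira2 (-2.40 ± 0.19) fell, and so did Pilrb1 (-1.46 ± 0.20) and Pilrb2 (-1.24 ± 0.24), and the lipid receptor Trem2 rose (1.09 ± 0.057). In NKO_Veh the inhibitory receptors gave 0 higher and 3 lower of 12 tested and the activating ones 0 higher and 3 lower of 10 tested, beside 2.40% of genes higher and 3.80% lower, led by Cd72 (-1.18 ± 0.14) and Clec4e (-1.71 ± 0.38). RGFP966 gave 4 higher and 1 lower of 12 tested and 4 higher and 0 lower of 8 tested, beside 15.8% of genes higher and 9.54% lower, with Pilrb2 (1.81 ± 0.11), Pilrb1 (1.37 ± 0.11) and Pilra (1.11 ± 0.063) at the head. The TBK1 inhibitor lowered the B cell and macrophage receptor Cd72 (-3.45 ± 0.062), Cd200r1 (-1.95 ± 0.12) and Milr1 (-1.93 ± 0.059).

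Across the 22 group means of log2(CPM + 1), centered within each table, members were compared with each other and with 8861 genes that averaged at least 5 CPM in each table. The points share scaling and depth within a table, and the correlations (Pearson's r) are descriptions. Cd300a, Cd300lb and Cd300ld went together (0.90, 0.88 and 0.80 for the 3 pairs). Siglece went with Cd33 (0.81) and with Cd300e (0.67), and Siglec1 with Cd300lf (0.59). Cd300ld ran against Cd33 (-0.87) and Siglece (-0.80). By the same measure, the 3 genes most like Cd300a were Cerk (0.975), Plxdc1 (0.968) and Cd84 (0.965), those most like Cd300lb were Sec22c (0.973), Fam117a (0.972) and Cnr2 (0.971), and those most like Cd300ld were Cd300c2 (0.973), Matk (0.972) and Zmiz1 (0.969), of which Cd300c2 is a neighbor in the same cluster. Cd33 was followed most closely by Bst1 (0.954), Blmh (0.909) and Tmsb4x (0.899), and Siglece by Fpr1 (0.95), Eloc (0.946) and Utp23 (0.936). For Cd300e the nearest were Slu7 (0.898), Lpcat2 (0.898) and Sppl2a (0.897), for Siglec1 Unc13d (0.879), Pde7b (0.869) and Cd72 (0.864), and for Cd300lf Ccr2 (0.889), Ccnd1 (0.832) and Oraov1 (0.822).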

How the data were processed

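RNA-seq of 44 libraries was analysed from 4 tables of raw counts deposited by the authors. The authors aligned reads to mm10 with STAR and, per the file headers, counted reads in exons of 1 RefSeq transcript per gene with HOMER's analyzeRepeats.pl, without normalization. The headers name no strand option, whereas the study's methods describe strand-specific reads, so reads of overlapping antisense genes may be shared. All sample columns were assigned to a group (0 left out).

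Each table was fitted apart in R 4.3.3 with edgeR 4.0.16, with TMM scaling, filterByExpr (13407, 12196, 12205 and 12332 genes tested in the NCoR, RGFP966, Pgc1b and TBK1i tables) and the robust quasi-likelihood fit, all groups of a table together. 2-sided tests were adjusted by Benjamini-Hochberg over the genes tested. Calls required both an adjusted p under 0.05 and more than a 1.5-fold change. CPM values use TMM-scaled library sizes, and each table was scaled on its own. The KLA libraries of the 4 tables were also fitted jointly. On simulated data for NKO_Veh against WT_Veh (13325 genes), 200 of 200 changed genes were recovered, with 4 false calls. The changed genes were drawn only from those with a baseline above 5 CPM, and all their changes were well above 1.5-fold. Recovery of scarcer genes, or of changes near the fold threshold, was not simulated. Replicates were compared by chi-square, and 22 of 22 pairs differed beyond sampling noise, so none was counted as a repeat.

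The members, the gene lists and the tests were chosen with earlier results of these data known. Every member is named. List genes were named, largest change first, among those called in an NKO, inhibitor or Cre contrast. Values of some list genes are not reported here. For likeness, the 3 genes with the highest Pearson's r over the 22 group means were named. Promoters came from RefSeq (GRCm38.p6). DESeq2 1.42.0, its size factors, other filters, only the compared groups, a replicate block, each library left out, no fold threshold and, added after the data were seen, the libraries of 1 date stamp were tried. Figures were drawn with matplotlib 3.10.9.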

Additional observations from a re-analysis of the deposited data

Results flagged for a closer look

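Differences between genotypes in the response to a ligand, by the interaction term of edgeR, drew attention in 13 cases, each given as the difference of 2 log2 fold changes. In NKO against WT cells with poly I:C the terms were 0.772 for Cd300a and 1.676 for Siglece. With RANKL they were 1.29 for Siglec1, 2.417 for Cd300e, 1.789 for Cd300lf and 2.537 for Siglece. With KLA they were 3.145 for Siglec1 and 4.014 for Cd300lf. For Cre against no Cre in Pgc1b flox cells with KLA they were -1.506 for Siglec1, -1.318 for Cd300lb, -1.169 for Cd33, 0.884 for Cd300ld and 1.677 for Cd300a. Over all genes tested, the interaction with genotype was called for 3.24% with poly I:C, 14.2% with RANKL and 36.9% with KLA. The interaction of Cre and KLA was called for 22.8% of genes. The genes were chosen with these libraries known, so the terms are descriptions. The terms of the NCoR table share the vehicle libraries of both genotypes, and in those with KLA or RANKL the ligand libraries differ from vehicle in date stamp. The RANKL libraries differ from vehicle in treatment time as well, 12 h against 6 h, and in the cell type their names give. As given above, the poly I:C terms of Cd300a and Siglece lost their calls with only the compared groups fitted. The Siglece term also lost it with DESeq2, in the fit of 1 date stamp and without some single libraries. The RANKL term of Cd300e lost its call without NKO_RANKL replicate 2.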

How the results depend on the processing

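Members were called in 49 of 64 ligand responses, 18 of 48 NKO comparisons, 22 of 32 inhibitor and Cre comparisons and 13 of 48 interactions. The shares of all genes called are given above by contrast and differ widely. They ran from 0.164% higher and 0.139% lower for Cre at vehicle to 29.6% higher and 29.3% lower for KLA in DMSO cells. Nothing about the members is read from the pooled counts. Without the fold threshold, the NKO count moved to 28. In the libraries of 1 date stamp, 1 of 2 interactions stayed called, an alternative chosen after seeing the data. Leaving out each library gave 48 to 51 ligand calls, 16 to 19 NKO calls, 20 to 22 inhibitor and Cre calls and 12 to 16 interactions. Every other setting of these 4 counts stayed within 1.5 times of it. The replicate block gave 49, 18, 22 and 13 calls and changed no call. Replicate numbers do not pair the samples, since deviations of same-numbered libraries had correlations of -0.07 to 0.08 over the 66 pairs of NCoR-table groups, and likewise close to 0 in the other tables. No called value changed sign in any setting. Against the KLA controls of other tables, Cd300a in NKO_KLA went from -0.38 to 0.17 (Pgc1b_flox_KLA) and 0.40 (DMSO_KLA), and Cd300lb from 0.29 to -0.32 (Pgc1b_flox_KLA), none of them called. The causes were not tested. Depth limits Siglece, Cd33, Cd300e and Cd300lf most, whose vehicle or IL4 libraries often held few counts.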
